A study of Mus musculus with 12 samples.

Results

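Genes that carry glucose into the cell, burn it to lactate, store it as glycogen or send it through the pentose phosphate pathway were followed in macrophages that had entered neuroblastoma spheres and in macrophages of the same cultures that had stayed outside. The set holds 34 genes, listed by name for their place in these pathways. A gene was represented by the probe set that carries its symbol and no other, and where several did, by the one with the highest mean over the 12 arrays. By that rule 30 of the 34 genes were measured, of 17097 genes in all, and all 30 were among the 12488 genes bright enough to be tested. Gpi1, Pgam1, Eno1 and G6pdx had no probe set with that single symbol and were not analysed here, so the isomerase and mutase steps of glycolysis and the entry enzyme of the pentose phosphate pathway have no value below.

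The groups were in-sphere macrophages at 24 h, outside macrophages at 24 h, in-sphere macrophages at 48 h and outside macrophages at 48 h, with 3 arrays each. All were bone marrow-derived macrophages labelled with the strain C57BL/6 and co-cultured with spheres of TT9423, a neuroblastoma cell line that formed spheres over agar. In-sphere cells carry the label CD11b+, and the protocol text, which is the same on every sample, describes digestion of the spheres with collagenase and DNase followed by CD11b magnetic columns. The sources used here do not say whether outside cells went through the same steps, and the protocol speaks of a co-culture of 24 h on the samples of 48 h as well. No genotype, agent or age beyond these is given in the labels. Per the series' design text, replicates came from separate experiments, and each RNA was pooled from several wells.

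Glycolysis breaks glucose down to pyruvate, which is reduced to lactate and exported when oxygen is short or demand for energy is high. The pentose phosphate pathway branches off after the first step and yields NADPH, used against oxidants and for lipid synthesis, and ribose for nucleotides, while glycogen is the cell's glucose store. Many glycolysis genes are known targets of the hypoxia-inducible factor HIF-1, and macrophages are known to shift toward glycolysis on inflammatory activation or in poor oxygen.

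Values are log2 levels from RMA, a method that corrects, normalises and summarises the probes of Affymetrix arrays, so a difference of 1 is a doubling of signal. Because probe sets differ in affinity, levels are compared here for 1 gene across arrays and never between genes. All 12 macrophage markers exceeded 2.77, the level used as a filter on dim probe sets, on every array. The adrenergic neuroblastoma marker Th averaged 3.02 ± 0.23 in spheres and 3.07 ± 0.069 outside at 24 h (mean ± SD, n = 3 each), close to that level. Of the same marker list Gap43 averaged 6.97 ± 0.66 in spheres and 2.98 ± 0.20 outside and Ncam1 6.23 ± 0.40 in spheres and 5.24 ± 0.20 outside at 24 h, so sphere arrays carried more signal of some neural markers. One in-sphere array of 48 h, replicate 3, was dimmer than the rest. Its mean over all probe sets was 4.06, against 4.20 to 4.22 on the other 11 arrays. Results at 48 h are therefore given without it where a call changes.

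Within the set, most measured genes from glucose uptake to lactate were higher in spheres, and the measured pentose phosphate genes were lower at 24 h. Outside the set, 0 of 14 further glycolysis genes tested were higher and 2 lower at 24 h. Of 7 further pentose phosphate genes 1 was higher and 0 lower at that time. At 24 h 17 of the 30 genes were higher in spheres, 6 were lower and 7 did not pass the test, which was limma's moderated test with a Benjamini-Hochberg adjusted p under 0.05 over all 12488 genes. Over all genes tested 29.4% were called in that comparison, 15.8% higher and 13.6% lower. At 48 h the counts were 17 higher, 6 lower and 7 not called, where 37.5% of all genes were called, 15.2% higher and 22.3% lower. Leaving out replicate 3 in spheres at 48 h left 16 higher and 6 lower at that time. Higher at both times were 16 genes, lower at both times 5, and not called at either time 5. The share of all genes called at both times was not computed. The 6 of 30 genes lower at 48 h were no larger a share than the 22.3% of all genes. The median difference, in-sphere minus outside, was 0.76 over the 30 genes at 24 h, against -0.01 over all genes, and 0.53 at 48 h, against -0.10 over all genes. In arrays of whole cell populations, fewer cells of a type and less RNA per cell cannot be told apart.

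Counts by branch follow, for genes of the set only. Of the 23 measured genes from glucose uptake to lactate and the pyruvate gate, 16 were higher and 2 lower at 24 h, with a median of 0.82, and 16 were higher and 3 lower at 48 h, with a median of 0.85. Of 4 genes listed under glycogen, 1 was higher and 1 lower at either time. All 3 measured pentose phosphate genes were lower at 24 h, with a median of -0.83, and 2 of 3 at 48 h, with a median of -0.77. In 18 genes every in-sphere array lay above every outside array at 24 h and in 6 every one lay below, while over all genes 43.4% did not overlap, 22.0% above and 21.5% below. At 48 h the counts were 18 above and 8 below, against 51.6% of all genes without overlap, 20.7% above and 31.0% below.

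**Figure D1:**
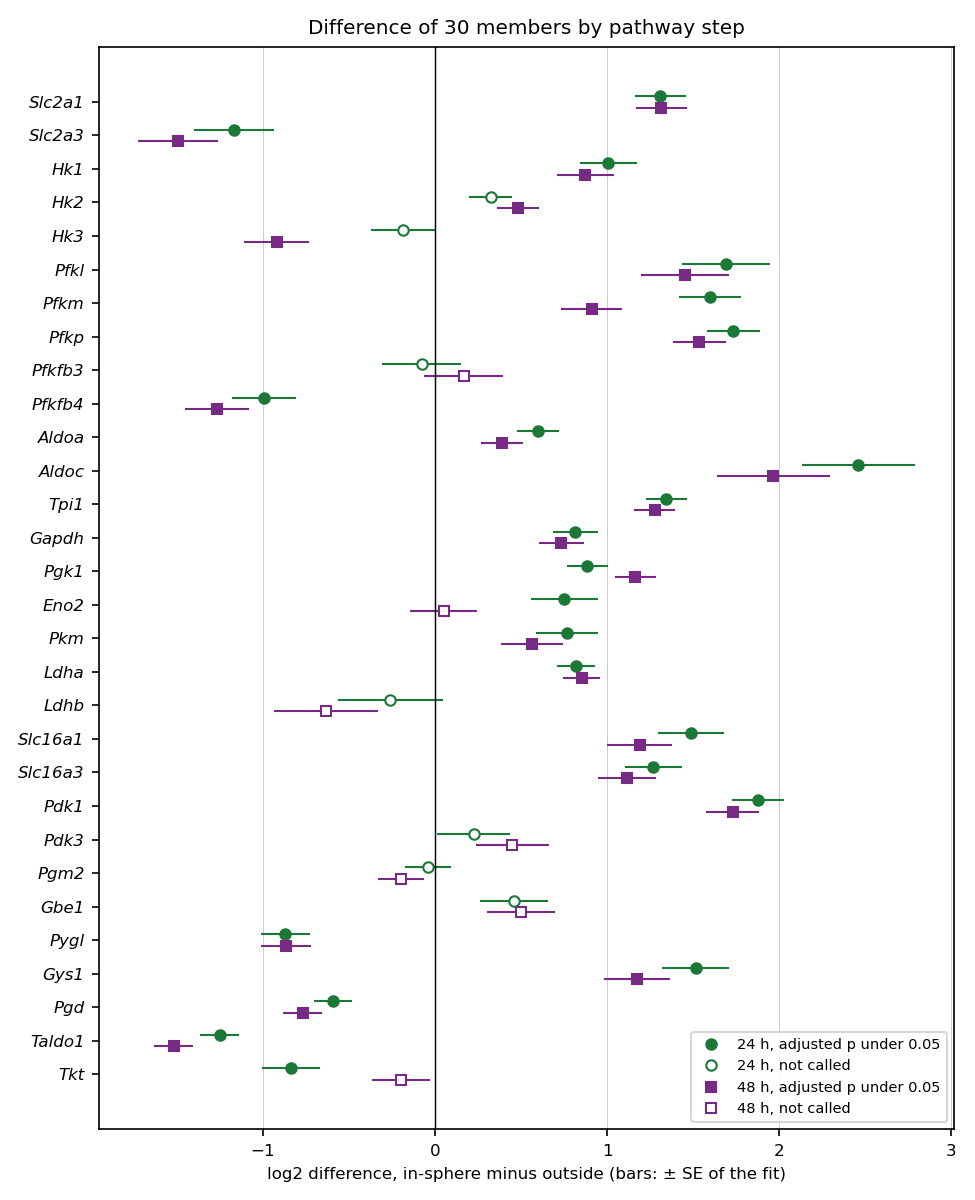
Difference in log2 level, in-sphere minus outside, for the 30 measured genes from uptake at the top to the pentose phosphate pathway at the bottom, with circles for 24 h, squares for 48 h, bars for ± SE of the fit and filled symbols for an adjusted p under 0.05. Filled symbols lie right of 0 for 17 genes and left of it for 6 at each time, with Taldo1, Slc2a3 and Pfkfb4 farthest to the left at 48 h.

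Promoter windows of the genes are shown because the genes that were higher moved together and HIF-1 is known to bind sites with the core ACGTG or GCGTG. RefSeq windows of GRCm38.p6, from 250 bases before to 50 after a start site, were held for 33 of the 34 genes (47 windows in all), with Slc2a3 lacking one. One of these cores, on either strand, was found in 36 of the 47 windows (76.6%), against 43.8% of all 32851 windows. ACGTG alone was in 46.8% of the members' windows, against 19.6% of all, and GCGTG alone in 55.3%, against 32.4%. CACGTG, the E-box palindrome that holds ACGTG on both strands, was in 8.51%, against 7.15%. Both cores hold a CG dinucleotide, of which the members' windows had a median of 20, against 7 over all windows. Windows of a gene can overlap, and these counts describe letters, not bound sites.

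Of the 16 genes higher at both times 14 had a window with a core, and so did all 4 with a window among the genes lower at both times, so the cores were on both sides. In Ldha 7 matches were counted, with each CACGTG counted on both strands. The 5 windows below are those of Ldha, Pgk1, Pfkp and Tpi1, which were higher, and of Taldo1, which was lower. Capitals mark ACGTG or GCGTG read on either strand (CACGT and CACGC are their reverse complements), Tpi1 had none, and each is written from 5′ to 3′ along its gene.
Ldha (chr7:46845554-46845853, plus strand): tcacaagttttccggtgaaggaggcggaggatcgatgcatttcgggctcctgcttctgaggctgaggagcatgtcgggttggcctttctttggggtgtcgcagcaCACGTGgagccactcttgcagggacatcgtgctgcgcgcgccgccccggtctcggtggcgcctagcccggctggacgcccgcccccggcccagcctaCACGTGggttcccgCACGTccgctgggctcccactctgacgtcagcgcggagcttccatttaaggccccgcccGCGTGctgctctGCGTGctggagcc
Pgk1 (chrX:106186850-106187149, plus strand): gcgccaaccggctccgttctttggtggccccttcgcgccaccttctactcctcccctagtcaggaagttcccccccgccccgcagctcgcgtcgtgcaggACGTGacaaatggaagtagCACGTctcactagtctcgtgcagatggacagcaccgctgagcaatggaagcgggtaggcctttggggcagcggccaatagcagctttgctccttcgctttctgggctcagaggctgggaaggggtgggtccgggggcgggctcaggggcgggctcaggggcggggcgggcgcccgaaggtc
Pfkp (chr13:6648722-6649021, minus strand): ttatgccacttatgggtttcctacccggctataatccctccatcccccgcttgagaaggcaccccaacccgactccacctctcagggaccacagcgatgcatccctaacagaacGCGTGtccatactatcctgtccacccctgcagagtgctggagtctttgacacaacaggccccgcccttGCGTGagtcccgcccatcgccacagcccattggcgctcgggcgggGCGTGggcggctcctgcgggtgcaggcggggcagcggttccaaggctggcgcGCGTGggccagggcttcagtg
Tpi1 (chr6:124814109-124814408, minus strand): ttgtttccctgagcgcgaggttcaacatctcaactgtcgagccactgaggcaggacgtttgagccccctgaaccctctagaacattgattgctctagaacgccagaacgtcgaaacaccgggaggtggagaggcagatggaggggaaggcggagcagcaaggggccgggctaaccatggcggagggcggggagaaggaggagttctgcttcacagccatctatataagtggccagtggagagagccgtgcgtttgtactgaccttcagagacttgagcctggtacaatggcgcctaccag
Taldo1 (chr7:141391910-141392209, plus strand): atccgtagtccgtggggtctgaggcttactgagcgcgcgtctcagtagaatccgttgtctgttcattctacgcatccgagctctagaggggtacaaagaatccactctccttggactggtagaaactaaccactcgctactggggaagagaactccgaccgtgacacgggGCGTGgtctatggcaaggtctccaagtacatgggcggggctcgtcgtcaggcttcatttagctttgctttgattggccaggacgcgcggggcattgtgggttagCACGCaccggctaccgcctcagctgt

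Both glucose transporters of the set changed, in opposite directions. Slc2a1 (GLUT1), the transporter that most cells use for basal uptake, had 10.58, 10.54 and 10.65 in spheres, against 9.52, 9.23 and 9.09 outside at 24 h. Levels at 48 h were 10.65, 10.31 and 10.50 in spheres, against 9.16, 9.39 and 8.96 outside. Every in-sphere array lay above every outside one, and the difference was 1.31 ± 0.15 at 24 h (2.48-fold, adjusted p = 5.74e-05, SE of limma's fit, n = 3 each here and below) and 1.32 ± 0.15 at 48 h (adjusted p = 3.42e-05). Slc2a3 (GLUT3), a high-affinity transporter of neurons and white blood cells, had 8.79, 8.63 and 9.27 in spheres, against 9.76, 10.45 and 9.98 outside at 24 h. Its 48 h levels were 8.34, 8.68 and 8.79 in spheres, against 9.69, 10.40 and 10.19 outside. All in-sphere arrays were the lower ones, and the difference was -1.17 ± 0.23 at 24 h (0.446 times the outside signal, adjusted p = 0.00263) and -1.49 ± 0.23 at 48 h (adjusted p = 3.65e-04). Of its 3 other probe sets the bright one differed by -1.29 at 24 h and -1.65 at 48 h. It carries a suffix that marks probes able to hybridise with other transcripts. The platform annotation lists the same source sequence for it and for the probe set used, so it is not separate support. The 2 dim ones differed by -0.45 and -0.18 at 24 h and by -0.30 and -0.38 at 48 h.

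Hexokinases trap glucose in the cell as glucose 6-phosphate, and their 3 genes differed in direction. Hk1, the hexokinase found in nearly all tissues, had 8.30, 8.45 and 8.70 in spheres, against 7.55, 7.68 and 7.19 outside at 24 h. All in-sphere arrays were the higher ones, and the difference was 1.01 ± 0.17 (adjusted p = 7.29e-04), and 0.87 ± 0.17 at 48 h (adjusted p = 0.00133). The 48 h call was lost when the mean of its 2 probe sets was used (0.60, adjusted p = 0.0568, within 1.33e-04 to 0.0568 over its alternatives). Hk2, the inducible hexokinase of muscle and tumours, had 9.65, 9.35 and 9.43 in spheres, against 9.01, 9.12 and 8.85 outside at 48 h. The groups did not overlap there and the difference was 0.48 ± 0.12 (adjusted p = 0.00859). At 24 h it was 0.32 ± 0.12 and did not pass (95% interval 0.06 to 0.59, adjusted p = 0.0674), although it passed with cyclic loess, with a trended prior and without replicate 2 in spheres (adjusted p = 0.0333, 0.0323 and 0.0482, within 0.0323 to 0.205 over its alternatives). Hk3, the hexokinase of myeloid cells, had 7.92, 7.83 and 7.42 in spheres, against 8.60, 8.66 and 8.67 outside at 48 h. It was lower in spheres on every array at that time (-0.92 ± 0.19, adjusted p = 0.00239). At 24 h its arrays overlapped and the difference was -0.18 ± 0.19 (95% interval -0.60 to 0.23, adjusted p = 0.530).

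Phosphofructokinase, which commits sugar to glycolysis, was higher in spheres in all 3 of its genes, by the probe set used for each. The platelet-type Pfkp had 9.60, 9.69 and 9.87 in spheres, against 8.28, 7.83 and 7.83 outside at 24 h. Its 48 h levels were 9.78, 9.43 and 9.57 in spheres, against 8.21, 8.04 and 7.92 outside, again with no overlap. The difference was 1.73 ± 0.15 at 24 h (3.33-fold, adjusted p = 1.07e-05) and 1.54 ± 0.15 at 48 h (adjusted p = 1.49e-05). A dimmer second Pfkp probe set gave 1.25 at 24 h and 0.52 at 48 h, where its arrays overlapped. The mean of both gave 1.03 at 48 h, still called higher. The liver-type Pfkl had 6.66, 7.11 and 7.22 in spheres, against 5.92, 5.22 and 4.78 outside at 24 h, where replicate 1 outside was the highest of its group. It differed by 1.69 ± 0.26 (adjusted p = 4.43e-04) at 24 h and by 1.45 ± 0.26 at 48 h (adjusted p = 8.45e-04). Its 3 probe sets did not agree in size or direction. The second gave 0.93 at 24 h and 0.62 at 48 h. The third gave -0.07 at 24 h, with overlap, and -0.49 at 48 h, with every in-sphere array below every outside one. The mean of the 3 gave 0.85 at 24 h and 0.53 at 48 h, still called higher. The muscle-type Pfkm had 5.85, 5.87 and 5.57 in spheres, against 4.33, 4.31 and 3.86 outside at 24 h, a difference of 1.60 ± 0.18 (adjusted p = 5.33e-05), and 0.91 ± 0.18 at 48 h (adjusted p = 0.00172).

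Of 2 enzymes that set fructose 2,6-bisphosphate, the activator of phosphofructokinase, Pfkfb4 was lower and Pfkfb3 did not pass. Pfkfb4 had 5.99, 6.21 and 6.55 in spheres, against 7.17, 7.51 and 7.04 outside at 24 h. After 48 h the arrays read 6.03, 6.23 and 5.87 in spheres, against 7.05, 7.59 and 7.28 outside. Its in-sphere arrays were all the lower ones, with a difference of -0.99 ± 0.19 at 24 h (adjusted p = 0.00181) and -1.26 ± 0.19 at 48 h (adjusted p = 2.41e-04). Pfkfb3, known in other cells as a HIF-1 target that favours the activator's synthesis, overlapped between the groups at both times. Its difference was -0.08 ± 0.23 at 24 h (95% interval -0.57 to 0.42, adjusted p = 0.851) and 0.17 ± 0.23 at 48 h (95% interval -0.33 to 0.67, adjusted p = 0.603).

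Aldolase, which splits the hexose in 2, was higher in spheres in both genes. Aldoc, the isoenzyme named for brain, had 7.07, 7.61 and 7.37 in spheres, against 5.57, 4.47 and 4.64 outside at 24 h. The 48 h arrays gave 8.03, 7.74 and 7.41 in spheres, against 6.44, 5.62 and 5.21 outside. The groups did not overlap, although replicate 1 outside was the highest of its group at both times. The difference of 2.46 ± 0.33 at 24 h (5.5-fold, adjusted p = 1.87e-04) was the largest of the 30 genes in this fit, and that at 48 h was 1.97 ± 0.33 (adjusted p = 5.88e-04). A dim second probe set gave 0.50 at 24 h and 0.57 at 48 h. Aldoa, the main aldolase of most cells, had 12.39, 12.12 and 12.27 in spheres, against 11.77, 11.74 and 11.46 outside at 24 h, a difference of 0.60 ± 0.12 (adjusted p = 0.00313). At 48 h it was 0.39 ± 0.12 (adjusted p = 0.0250), a call lost without replicate 1 or 2 in spheres or replicate 2 or 3 outside (adjusted p = 0.0662, 0.0561, 0.0682 and 0.102, within 0.00305 to 0.102 over its alternatives). All 4 Aldoa probe sets carry the suffix that marks probes able to hybridise with other transcripts, and they ran from 0.53 to 0.86 at 24 h and from 0.39 to 0.64 at 48 h.

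The triose steps were higher in spheres at both times in each of the 3 measured genes. Tpi1, the triose phosphate isomerase, had 11.58, 11.62 and 11.75 in spheres, against 10.47, 10.18 and 10.27 outside at 24 h. Levels at 48 h were 11.63, 11.55 and 11.72 in spheres, against 10.43, 10.43 and 10.22 outside. The distance between the groups was far above the spread within them, with a difference of 1.34 ± 0.12 at 24 h (2.54-fold, adjusted p = 9.72e-06) and 1.28 ± 0.12 at 48 h (adjusted p = 8.59e-06). Gapdh, the dehydrogenase often used as a loading control, had 12.70, 12.55 and 12.75 in spheres, against 11.99, 11.99 and 11.57 outside at 24 h. It was higher by 0.82 ± 0.13 at 24 h (adjusted p = 6.23e-04) and by 0.73 ± 0.13 at 48 h (adjusted p = 9.06e-04). The array's own Gapdh control probe sets, which are outside the gene rule, gave 0.81, 0.80 and 0.71 at 24 h from the 3′ end to the 5′ end, and 0.75, 0.78 and 0.70 at 48 h. The beta-actin controls, in the same order, gave -0.10, -0.19 and -0.30 at 24 h and -0.01, -0.01 and -0.03 at 48 h. Pgk1, the kinase that yields the first ATP of the pathway, had 12.15, 12.27 and 12.33 in spheres, against 11.40, 11.43 and 11.27 outside at 24 h. It was higher by 0.88 ± 0.12 (adjusted p = 1.95e-04) at 24 h and by 1.16 ± 0.12 at 48 h (adjusted p = 1.78e-05), where its levels were 12.41, 12.25 and 12.28 in spheres, against 11.17, 11.32 and 10.96 outside.

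Eno2, the enolase named for neurons, was dim. It had 2.89, 3.36 and 3.11 in spheres, against 2.42, 2.43 and 2.25 outside at 24 h and exceeded the filter level of 2.77 on 3 of 3 in-sphere arrays and 0 of 3 outside arrays. The fitted difference was 0.75 ± 0.19 (adjusted p = 0.0114). Its size is not well measured, because the outside arrays lay below the filter level. The call was lost without replicate 2 in spheres (adjusted p = 0.0514, within 4.38e-04 to 0.0514 over its alternatives). At 48 h it averaged 2.95 ± 0.41 in spheres and 2.90 ± 0.19 outside (mean ± SD) and the groups overlapped (0.05 ± 0.19, adjusted p = 0.866). Pkm, the pyruvate kinase gene of most tissues other than liver, had 11.02, 11.19 and 11.43 in spheres, against 10.60, 10.75 and 9.99 outside at 24 h, a difference of 0.77 ± 0.18 (adjusted p = 0.00703). Its single probe set does not tell the splice forms M1 and M2 apart here. At 48 h it was 0.57 ± 0.18 (adjusted p = 0.0276), a call lost on leaving out any in-sphere array of that time (adjusted p = 0.0583, 0.0619 and 0.0571 without replicates 1, 2 and 3) or replicate 1 or 3 outside (0.0867 and 0.0850), within 0.00388 to 0.0867 over its alternatives.

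Lactate genes of the set were mostly higher. Ldha, the lactate dehydrogenase subunit that favours making lactate, had 12.47, 12.29 and 12.33 in spheres, against 11.57, 11.62 and 11.44 outside at 24 h. Its 48 h levels were 12.32, 12.27 and 12.31 in spheres, against 11.50, 11.54 and 11.31 outside. It was the least variable of the 30 genes within groups (residual SD 0.091, against a median of 0.21 over the members), and it differed by 0.82 ± 0.11 at 24 h (adjusted p = 1.72e-04) and 0.85 ± 0.11 at 48 h (adjusted p = 8.01e-05). Ldhb, the subunit of oxidative tissues, overlapped between the groups at both times. It differed by -0.26 ± 0.30 at 24 h (95% interval -0.92 to 0.40, adjusted p = 0.590) and -0.63 ± 0.30 at 48 h (95% interval -1.29 to 0.03, adjusted p = 0.123). With the replicate number as a block Ldhb was called lower at 48 h (adjusted p = 0.0201, within 0.0201 to 0.435 over its alternatives).

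Both monocarboxylate transporters of the set, which move lactate across the membrane, were higher. Another one outside the set, Slc16a7, was lower at 24 h and is given below. Slc16a1 (MCT1) had 7.70, 7.06 and 6.89 in spheres, against 5.65, 5.59 and 5.94 outside at 24 h, and it differed by 1.49 ± 0.19 at 24 h (adjusted p = 1.34e-04) and 1.19 ± 0.19 at 48 h (adjusted p = 4.14e-04). Slc16a3 (MCT4), the exporter of strongly glycolytic cells, had 5.71, 5.42 and 5.72 in spheres, against 4.31, 4.59 and 4.15 outside at 24 h, and it differed by 1.27 ± 0.17 (2.41-fold, adjusted p = 1.71e-04) and by 1.12 ± 0.17 at 48 h (adjusted p = 2.68e-04). No in-sphere array of either gene overlapped an outside array of the same time.

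Pdk1, a kinase that shuts pyruvate dehydrogenase and so keeps pyruvate out of mitochondria, had 8.96, 8.71 and 8.82 in spheres, against 7.16, 6.79 and 6.91 outside at 24 h. After 48 h the arrays read 8.85, 8.54 and 8.72 in spheres, against 7.05, 7.17 and 6.69 outside. It had the smallest adjusted p of the 30 genes at 24 h, with a difference of 1.88 ± 0.15 (3.67-fold, adjusted p = 6.21e-06), and 1.73 ± 0.15 at 48 h (adjusted p = 6.46e-06). Its 2 other probe sets gave 1.81 and 1.81 at 24 h and 1.96 and 1.54 at 48 h. Its relative Pdk3 did not pass, at 0.23 ± 0.21 at 24 h (95% interval -0.24 to 0.69, adjusted p = 0.484) and 0.45 ± 0.21 at 48 h (95% interval -0.01 to 0.91, adjusted p = 0.119). Centring every array on its median, which shifted every in-sphere difference by -0.06 at 24 h and by 0.12 at 48 h, made Pdk3 a higher call at that time (0.57, adjusted p = 0.0373). So did cyclic loess (adjusted p = 0.0284), array weights (0.0127) and leaving out replicate 2 outside (0.0356), within 0.0127 to 0.382 over its alternatives.

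**Figure D2:**
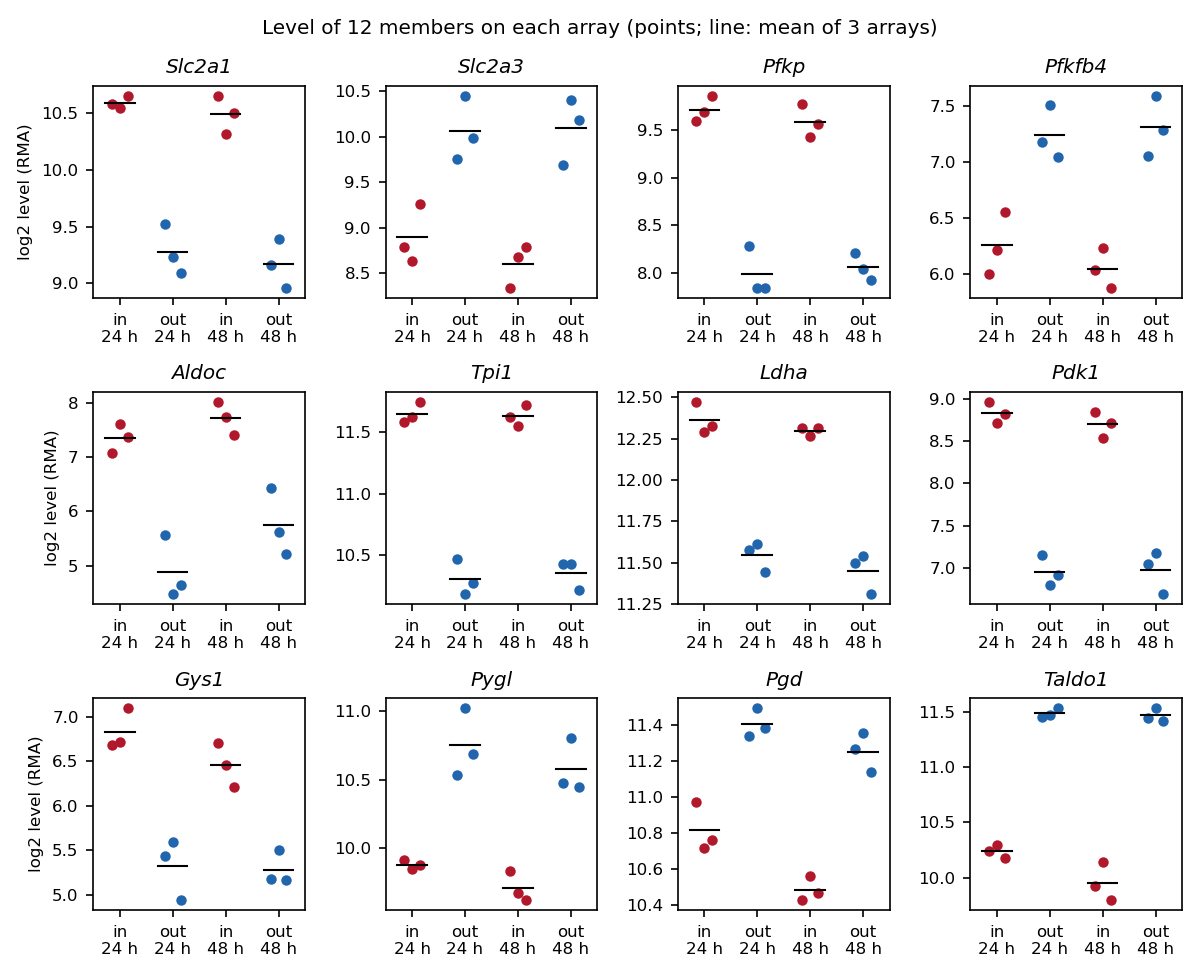
Level of 12 of the genes on each array, as log2 values from RMA on axes that do not start at 0, with red points for in-sphere arrays, blue points for outside arrays and a line at the mean of 3. Red points lie above blue ones of the same time for Slc2a1, Pfkp, Aldoc, Tpi1, Ldha, Pdk1 and Gys1, and below them for Slc2a3, Pfkfb4, Pygl, Pgd and Taldo1.

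Of the glycogen genes the synthase was higher in spheres and the phosphorylase lower. Gys1, the glycogen synthase of tissues other than liver, had 6.68, 6.72 and 7.10 in spheres, against 5.43, 5.59 and 4.93 outside at 24 h. The 48 h arrays gave 6.71, 6.45 and 6.21 in spheres, against 5.17, 5.50 and 5.17 outside. Its in-sphere arrays were all above the outside ones, with a difference of 1.52 ± 0.19 at 24 h (2.86-fold, adjusted p = 1.42e-04) and 1.17 ± 0.19 at 48 h (adjusted p = 5.43e-04). A dim second probe set gave 0.54 and 0.26. Pygl, the phosphorylase that releases glucose 1-phosphate from glycogen, had 9.91, 9.85 and 9.88 in spheres, against 10.54, 11.02 and 10.69 outside at 24 h. Its 48 h levels were 9.84, 9.67 and 9.62 in spheres, against 10.48, 10.80 and 10.44 outside. It was lower, with a difference of -0.87 ± 0.14 at 24 h (adjusted p = 8.00e-04) and -0.86 ± 0.14 at 48 h (adjusted p = 5.70e-04), with no overlap at either time.

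Gbe1, the branching enzyme, had 7.07, 6.64 and 6.75 in spheres, against 6.28, 6.53 and 6.15 outside at 48 h, in-sphere arrays being the higher ones, and it did not pass. It differed by 0.46 ± 0.20 at 24 h (95% interval 0.03 to 0.89, adjusted p = 0.102) and 0.50 ± 0.20 at 48 h (95% interval 0.07 to 0.93, adjusted p = 0.0642). With the replicate number as a block Gbe1 was called higher at both times (adjusted p = 0.0476 at 24 h and 0.0281 at 48 h), and it gained the call under 2 alternatives at 24 h and 7 at 48 h (adjusted p from 0.0276 to 0.365 at 24 h and from 0.0159 to 0.198 at 48 h over all of them). Pgm2 differed by -0.04 ± 0.13 at 24 h (95% interval -0.33 to 0.25, adjusted p = 0.869) and -0.20 ± 0.13 at 48 h (95% interval -0.49 to 0.09, adjusted p = 0.272). Its human counterpart acts mainly on pentose phosphates, and the glucose phosphomutase of glycogen turnover is Pgm1, which is given below with the wider pathway.

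Pentose phosphate genes of the set were lower in spheres, all 3 measured ones at 24 h and 2 of them at 48 h. Taldo1, the transaldolase of the branch without oxidation, had 10.24, 10.30 and 10.18 in spheres, against 11.46, 11.47 and 11.54 outside at 24 h. Levels at 48 h were 9.92, 10.14 and 9.79 in spheres, against 11.45, 11.54 and 11.42 outside. The groups lay far apart, with a difference of -1.25 ± 0.11 at 24 h (0.42 times the outside signal, adjusted p = 1.11e-05) and -1.52 ± 0.11 at 48 h (0.349 times, adjusted p = 1.94e-06), the smallest adjusted p of the 30 genes at 48 h. Pgd, the second enzyme of the branch that makes NADPH, had 10.97, 10.72 and 10.76 in spheres, against 11.34, 11.50 and 11.39 outside at 24 h. It was lower, with a difference of -0.59 ± 0.11 at 24 h (adjusted p = 0.00197) and -0.77 ± 0.11 at 48 h (adjusted p = 2.33e-04). Its 2 other probe sets gave -0.63 and -0.83 at 24 h and -0.72 and -0.79 at 48 h. The kept Pgd probe set and the first of the 2 others carry the suffix for possible cross-hybridisation. Tkt, the transketolase, had 10.48, 11.18 and 10.79 in spheres, against 11.69, 11.65 and 11.61 outside at 24 h and 11.13, 11.11 and 11.13 in spheres, against 11.22, 11.61 and 11.14 outside at 48 h. It was lower at 24 h (-0.83 ± 0.17, adjusted p = 0.00285). At 48 h it did not pass (-0.20 ± 0.17, 95% interval -0.57 to 0.17, adjusted p = 0.387), but the mean of its 2 probe sets was called lower (-0.73, adjusted p = 0.00810, within 0.00810 to 0.841 over its alternatives). The kept probe set carries the suffix for possible cross-hybridisation, and the dim other one gave -0.67 at 24 h and -1.27 at 48 h.

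Isoenzymes of a step, and some enzymes of different steps in the same pathway, were set against each other within each array. This shows unequal change and not which of the pair is more abundant. Of 14 pairs listed, 13 had both genes measured, and the compartment labels were permuted exactly within each time for the mean of the differences at 24 h and 48 h. Of the 400 relabellings the smallest two-sided p is 0.005, and 10 pairs reached it (adjusted p = 0.0065 over the 13 pairs). The share of other gene pairs that would reach it was not computed, so the count cannot be read as particular to these pairs. Of all single genes 43.4% at 24 h and 51.6% at 48 h did not overlap between compartments. The genes were also chosen with earlier results of these data known. The permutation treats the arrays of a time as exchangeable and the times as independent. Swaps of labels within each experiment and time allow 64 relabellings and a smallest p of 0.0312, and the exact test over them called 10 pairs as well (adjusted p = 0.0406). If both times of a number were 1 experiment, 8 swaps would remain, with a smallest p of 0.25, so no pair could pass. Deviations from group means correlated at 0.471, 0.473 and 0.419 between same-numbered outside arrays of both times. Between in-sphere arrays they correlated at 0.116, 0.14 and 0.0247. Independence of the times is therefore not shown, and the exact permutation p of 0.005 given below for pairs rests on it.

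The uptake pair had the largest difference of the 13. The log2 ratio of Slc2a3 to Slc2a1 averaged -1.69 ± 0.28 in spheres and 0.79 ± 0.50 outside at 24 h, and -1.89 ± 0.37 in spheres and 0.92 ± 0.36 outside at 48 h (mean ± SD, n = 3 each). That is a difference of -2.64 over both times, with no overlap at either (exact permutation p = 0.005, adjusted p = 0.0065). The aldolase ratio of Aldoa to Aldoc was lower in spheres, with a difference of -1.72 (same exact permutation p and adjusted p). For Pdk3 to Pdk1 it was -1.47, and for Ldhb to Ldha -1.28, each with no overlap between groups at either time and the same exact permutation p.

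Hexokinase ratios moved toward Hk1. Hk1 to Hk2 averaged -1.08 ± 0.18 in spheres and -1.77 ± 0.23 outside at 24 h, and -1.21 ± 0.08 in spheres and -1.60 ± 0.13 outside at 48 h, a difference of 0.54 (exact permutation p = 0.005, adjusted p = 0.0065). It missed the threshold with the mean over all probe sets (0.29, adjusted p = 0.130). Hk3 to Hk2 differed by -0.95. In the pair of glycogen breakdown and branching, Pygl to Gbe1 differed by -1.35, and Gys1 to Gbe1 by 0.86. Taldo1 to Tkt differed by -0.87 and Pfkfb3 to Pfkfb4 by 1.17, all with the same exact permutation p of 0.005 and adjusted p of 0.0065.

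Ratios among the phosphofructokinases and the lactate transporters did not pass the test. Pfkl to Pfkp differed by -0.06 (exact permutation p = 0.63, adjusted p = 0.63), Pfkm to Pfkp by -0.38 (p = 0.07, adjusted p = 0.0827, exact) and Slc16a1 to Slc16a3 by 0.15 (p = 0.445, adjusted p = 0.482, exact). These p-values do not show that the genes of a pair changed alike. With the mean over all probe sets Pfkl to Pfkp was called lower (-0.57, adjusted p = 0.00813), and Slc16a1 to Slc16a3 turned to -0.51 (adjusted p = 0.0414), where a second Slc16a1 probe set above the filter level on 0 of 12 arrays entered the mean.

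**Figure D3:**
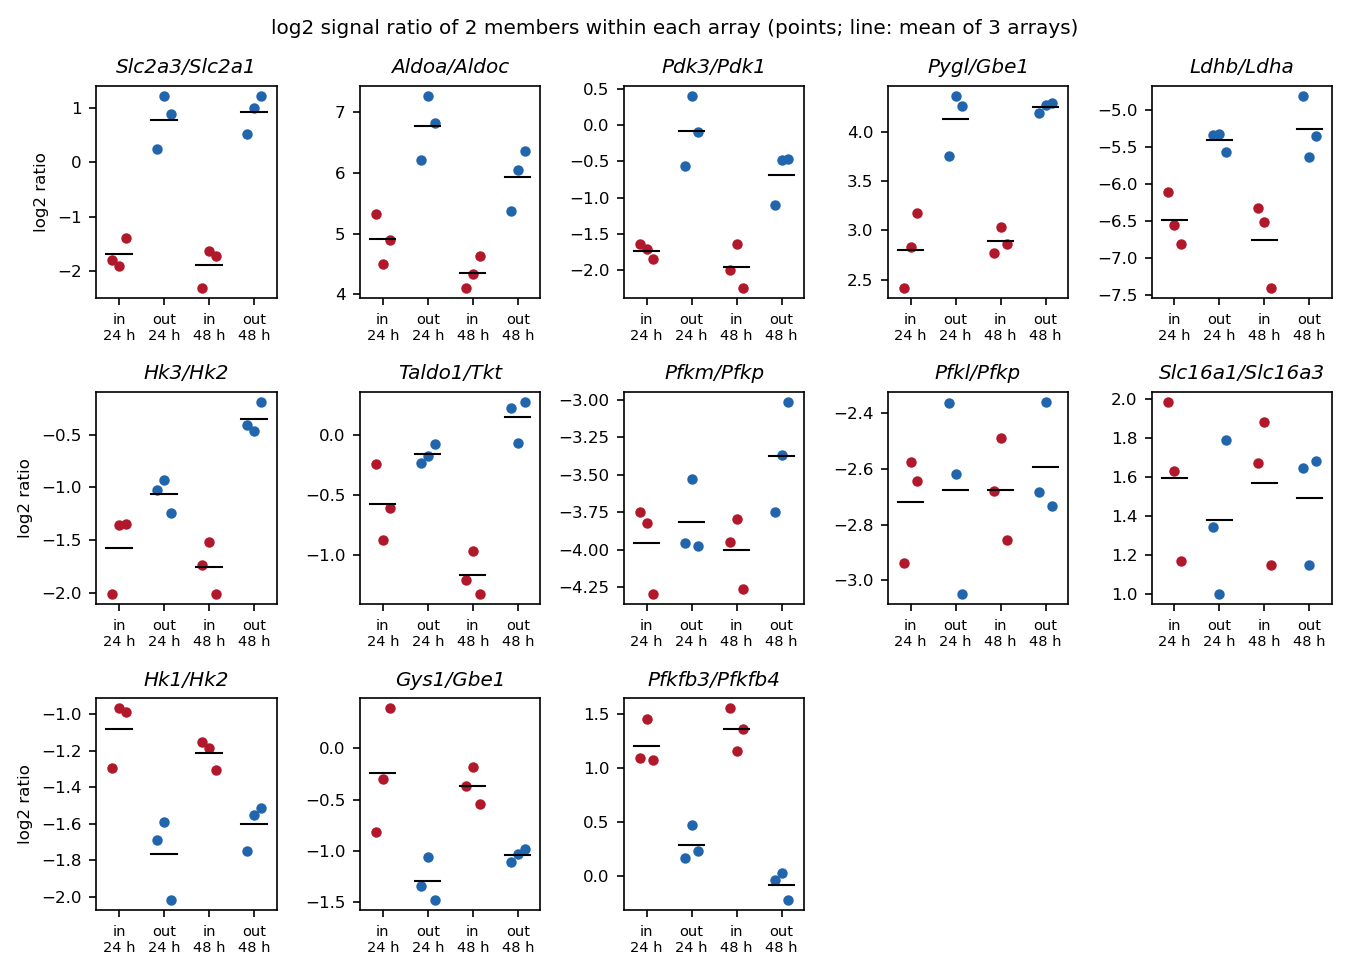
Log2 signal ratio of 2 genes within each array for the 13 pairs, ordered from the most negative to the most positive difference, with red points for in-sphere arrays, blue points for outside arrays and a line at the mean of 3. The pairs Slc2a3/Slc2a1, Aldoa/Aldoc, Pdk3/Pdk1, Pygl/Gbe1 and Ldhb/Ldha show red points below all blue points of the same time, while those of Pfkl/Pfkp and Slc16a1/Slc16a3 overlap.

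Between 24 h and 48 h 0 of the 30 genes were called by limma in either compartment. In spheres 0 of 12488 genes were called (0%), with 0 members higher and 2 lower at 48 h at an unadjusted p under 0.05. Outside 42 genes were called (0.336%), with 4 members higher and 1 lower at that unadjusted level. The in-sphere difference itself changed between times for 0 members (0% of all genes called), with 1 more positive and 3 more negative at an unadjusted p under 0.05. These were Tkt (0.63 ± 0.24, adjusted p = 0.313), Hk3 (-0.73 ± 0.27, adjusted p = 0.304), Eno2 (-0.70 ± 0.28, adjusted p = 0.335) and Pfkm (-0.69 ± 0.25, adjusted p = 0.307), the changes being 48 h minus 24 h. The calls of Tkt and Eno2 at 24 h alone and of Hk3 at 48 h alone are therefore not shown to differ between the times. The shares of all genes given here are for adjusted p. Shares at an unadjusted p under 0.05 were not computed, so the unadjusted counts cannot be read as particular to the members. All comparisons of a compartment share its arrays.

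Variation within groups ranged over the genes from a residual SD of 0.091 for Ldha and 0.099 for Taldo1 to 0.44 for Ldhb and 0.48 for Aldoc. The median was 0.21 over the members, and 0.21 over all genes tested. Set against the outside array of the same experiment, the in-sphere array was higher in 3 of 3 experiments at both times for 18 genes, the 16 called higher at both times together with Hk2 and Gbe1, and 17.8% of all genes tested did the same. It was lower in 3 of 3 at both times for the 6 genes Slc2a3, Pfkfb4, Pygl, Pgd, Taldo1 and Tkt, against 21.4% of all genes.

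Other genes of these pathways, listed by function, were mixed. Where 2 values follow a gene here and below, they are its differences at 24 h and then at 48 h. Of 14 further glycolysis genes tested, 0 were higher and 2 lower at 24 h, and 0 higher and 4 lower at 48 h, among them Adpgk, an ADP-dependent glucokinase (-1.59 ± 0.33 and -1.44 ± 0.33), and Bpgm, which makes 2,3-bisphosphoglycerate (-0.43 ± 0.12 and -0.68 ± 0.12). Galm, the mutarotase, was lower at 48 h (-0.85 ± 0.22), against 0.04 ± 0.22 at 24 h, which did not pass. Several of the 14 were dim, near the filter level.

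Of 16 further glycogen genes 5 were higher and 3 lower at 24 h, and 4 higher and 4 lower at 48 h. Pgm1, the phosphoglucomutase that links glucose 6-phosphate to glycogen, was higher at 1.73 ± 0.15 and 1.52 ± 0.15 (adjusted p = 1.10e-05 and 1.61e-05). Ppp1r3c, a subunit that targets a phosphatase to glycogen and favours its synthesis, was higher at 1.11 ± 0.31 and 0.94 ± 0.31, with 2 of 3 outside arrays above the filter level at each time. Stbd1, which tethers glycogen, was higher at 24 h (1.23 ± 0.35) and did not pass at 48 h (0.53 ± 0.35). Lower at both times were the primer Gyg, glycogenin (-0.81 ± 0.11 at 24 h, with adjusted p = 2.84e-05 at 48 h by limma), and the phosphatase subunit Ppp1r3d (-1.68 ± 0.32 and -1.82 ± 0.32), while Ppp1r3b was lower at 24 h (-0.77 ± 0.24), with 0.01 ± 0.24 at 48 h, not called.

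Around pyruvate 11 further genes were tested, with 2 higher and 2 lower at 24 h and 1 higher and 3 lower at 48 h. Mpc1, a subunit of the carrier that brings pyruvate into mitochondria, was lower at -1.08 ± 0.13 and -1.09 ± 0.13. The pyruvate dehydrogenase subunit Pdha1 was higher at 0.47 ± 0.11 and 0.34 ± 0.11, and Dlat, another subunit of it, at 24 h (0.52 ± 0.13), with 0.24 ± 0.13 at 48 h, which did not pass. The phosphatase Pdp1, which opposes the kinases, was lower at 48 h (-1.26 ± 0.22), against -0.43 ± 0.22 at 24 h, not called. Slc16a7 (MCT2) was lower at 24 h (-0.80 ± 0.20), with -0.50 ± 0.20 at 48 h, not called.

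Of 7 further pentose phosphate genes 1 was higher and 0 lower at 24 h, and 1 higher and 1 lower at 48 h. The higher one was Prps1, which turns ribose 5-phosphate into the nucleotide precursor PRPP (1.22 ± 0.16 and 1.46 ± 0.16), and the lower one H6pd (-0.61 ± 0.18 at 48 h, -0.25 ± 0.18 at 24 h). Of 4 gluconeogenesis genes 2 were higher and 0 lower at 24 h, and 1 higher and 1 lower at 48 h. Mitochondrial Pck2 was higher at 0.56 ± 0.15 and 0.59 ± 0.15. Slc37a4, the glucose 6-phosphate transporter, was higher at 24 h (0.93 ± 0.16), against 0.23 ± 0.16 at 48 h, not called, and its relative Slc37a2 was lower at 48 h (-1.15 ± 0.19), against -0.21 ± 0.19 at 24 h, not called.

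Regulators of the pathway were read on the same arrays. Of 16 genes 5 were higher and 3 lower at 24 h, and 5 higher and 4 lower at 48 h. Hif1a, the oxygen-regulated subunit of HIF-1, was higher at 0.74 ± 0.12 and 0.78 ± 0.12, and its relative Epas1 (HIF-2 alpha) lower at -1.89 ± 0.22 and -2.15 ± 0.22. In spheres Epas1 exceeded the filter level on 1 of 3 arrays at 24 h and 2 of 3 at 48 h, so the size of its difference is not well measured. The HIF prolyl hydroxylases Egln3 (2.42 ± 0.22 and 2.15 ± 0.22) and Egln1 (1.59 ± 0.15 and 1.62 ± 0.15), which mark HIF for degradation and are themselves known HIF targets, were higher. Myc, another known activator of glycolysis genes, was higher at 1.20 ± 0.22 and 0.88 ± 0.22. Mlxip (MondoA), a glucose sensor, was lower at -0.68 ± 0.20 and -0.81 ± 0.20, and Hif1an at 48 h (-0.95 ± 0.22), against -0.29 ± 0.22 at 24 h, not called. Txnip, a target of that sensor which restrains glucose uptake, did not pass (-0.16 ± 0.13 and -0.04 ± 0.13, 95% intervals -0.45 to 0.12 and -0.32 to 0.25). HIF protein is set largely by its degradation, which these arrays do not read.

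Markers of other cells moved with the compartments, and their part in the differences above was not tested. The summed level of 9 granulocyte markers ran from 14.24 to 14.70 in spheres and from 15.41 to 15.68 outside at 24 h, and from 13.71 to 14.34 in spheres and 15.15 to 15.58 outside at 48 h. The members called lower were Slc2a3, Pfkfb4, Pygl, Pgd and Taldo1 at both times, Tkt at 24 h and Hk3 at 48 h. Among the markers 7 of the 9 were lower and 0 higher at each time (all 9 above the filter level in every group), with Ltf at -1.95 ± 0.32 and -3.09 ± 0.32, Camp at -2.17 ± 0.43 and -2.99 ± 0.43 and Csf3r at -2.14 ± 0.30 and -2.54 ± 0.30. For 10 fibroblast markers the range was 10.85 to 11.89 in spheres and 8.70 to 9.41 outside at 24 h, and 11.39 to 11.44 in spheres and 8.83 to 9.53 outside at 48 h, with 5 of 10 higher and 1 lower at 24 h and 6 higher and 2 lower at 48 h. Col3a1 averaged 10.78 ± 0.42 in spheres and 8.14 ± 0.44 outside at 24 h. It was higher at 2.64 ± 0.31 and 3.28 ± 0.31, as were Dcn (2.60 ± 0.55 and 2.98 ± 0.55) and Thy1 (2.36 ± 0.23 and 2.04 ± 0.23). Col1a1 was lower at -0.60 ± 0.21 and -1.23 ± 0.21, and Fap at 48 h (-0.70 ± 0.24), against -0.46 ± 0.24 at 24 h, not called.

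For 19 neuroblastoma and neural markers the summed level ran from 8.09 to 8.74 in spheres and from 7.30 to 7.41 outside at 24 h, and from 8.16 to 8.47 in spheres and 7.10 to 7.15 outside at 48 h. Of 13 tested, 2 were higher and 0 lower at 24 h and 3 higher and 0 lower at 48 h, led by Gap43 (3.99 ± 0.30 and 4.41 ± 0.30) and Ncam1 (0.99 ± 0.20 and 1.64 ± 0.20), while Th differed by -0.05 ± 0.13 and -0.15 ± 0.13, not called. Outside at 48 h Gap43 exceeded the filter level on 1 of 3 arrays, so the size of its difference there is not well measured. Elavl4, called higher at 48 h, averaged 3.03 ± 0.042 in spheres and 2.37 ± 0.15 outside and exceeded that level on 3 of 3 in-sphere arrays and 0 of 3 outside arrays. No array of sphere cells alone was analysed here, and Aldoc, Eno2 and Gap43 are all known from neural cells. For 4 erythroid markers the range was 5.81 to 6.37 in spheres and 8.95 to 9.17 outside at 24 h, and 5.12 to 6.25 in spheres and 6.57 to 7.04 outside at 48 h, with Hba-a1 lower at -3.67 ± 0.47 and -1.82 ± 0.47. Of 12 macrophage markers 1 was higher and 3 lower at 24 h, and 2 higher and 4 lower at 48 h, with a summed level of 14.72 to 14.95 in spheres and 14.81 to 14.98 outside at 24 h and of 14.80 to 14.89 in spheres and 14.95 to 15.01 outside at 48 h. Cd14 was higher at 0.54 ± 0.13 and 1.09 ± 0.13, and Fcgr1 at 48 h (1.19 ± 0.40), against 0.99 ± 0.40 at 24 h, not called. Mertk was lower at -0.91 ± 0.15 and -1.25 ± 0.15, while Cd68 (-0.75 ± 0.13) and Spi1 (-0.66 ± 0.15) were lower at 48 h, against -0.34 ± 0.13 and -0.38 ± 0.15 at 24 h, not called. Itgam, which encodes CD11b, differed by 0.15 ± 0.25 and 0.56 ± 0.25, Csf1r by -0.18 ± 0.21 and -0.33 ± 0.21, and Ptprc by -0.35 ± 0.16 and -0.29 ± 0.16, none of them called.

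As a sign of RNA quality, beta-actin and Gapdh control probe sets at the 3′ and 5′ ends were compared, since degraded RNA loses signal toward the 5′ end. For beta-actin the log2 excess of the 3′ end was 0.35 to 0.60 in spheres and 0.22 to 0.32 outside at 24 h. At 48 h it was 0.39 to 0.42 in spheres and 0.37 to 0.40 outside. By beta-actin the groups did not overlap at 24 h and overlapped at 48 h. The Gapdh control probe sets gave -0.12 to 0.43 in spheres and -0.04 to 0.17 outside at 24 h, which overlapped. At 48 h they gave 0.11 to 0.15 in spheres and 0.05 to 0.10 outside, without overlap. The part of RNA quality in the differences was not tested.

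**Figure D4:**
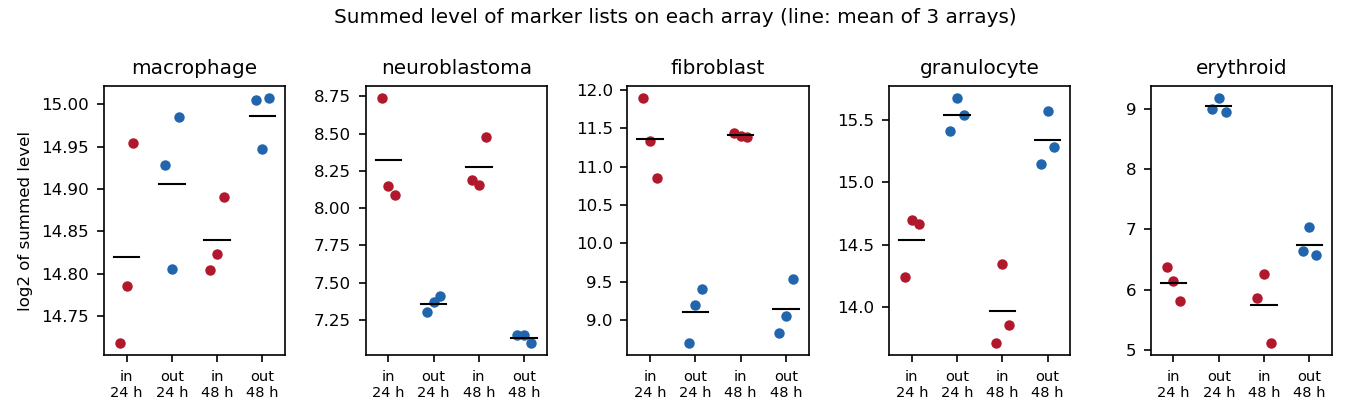
Summed level of 5 marker lists on each array, as log2 of the summed linear values on axes that do not start at 0, with red points for in-sphere arrays, blue points for outside arrays and a line at the mean of 3. Red points lie above blue ones of the same time for the neuroblastoma and fibroblast lists and below them for the granulocyte and erythroid lists, and for the macrophage list they overlap the blue ones at 24 h and lie below them at 48 h.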

How the data were processed

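Log2 expression was measured on 12 Affymetrix mouse arrays (platform HT MG-430 PM by its probe set names and annotation) from biotin-labelled cRNA, per the labels' protocols. The submitters' processing notes name RMA and Affymetrix Expression Console 1.1 as what the authors used for the deposited log2 values, and the log base was taken from their range. RMA normalises arrays to one distribution, which removes differences in total RNA and compresses those of dim probe sets. The number of arrays limits the precision.

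Of 45141 probe sets, 28898 had 1 gene symbol in the platform annotation, 551 several and 15692 none. RefSeq gene IDs (GRCm38.p6) matched 28689 and changed 0 symbols. Testing needed a gene's brightest probe set to lie above 2.77 (the 40th percentile over every value) on 3 or more arrays. One group-means model over all arrays was fitted in limma 3.58.1 (R 4.3.3), with 8 residual and 4.09 prior degrees of freedom, Benjamini-Hochberg adjustment over 12488 genes and calls under 0.05. Pair ratios and figures used Python 3.11.15 and matplotlib 3.10.9. The fits were tested on simulated data.

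The members and lists were chosen with earlier results of these data known. Named genes were all members and, of each other list, up to 3 called genes per direction with the largest difference at either time, with a fixed set of markers and regulators. The replicate number marks an independent experiment, per the series' design text. It paired the arrays only in the replicate block, the swaps within experiments and the counts by experiment. The main fit was unpaired. Deviations from group means correlated at 0.0215, 0.120 and 0.0813 between same-numbered in-sphere and outside arrays at 24 h, 0.117, 0.0417 and 0.112 at 48 h, and 0.471, 0.473 and 0.419 between outside arrays of both times. Alternatives were the filter, the mean over probe sets, centring, cyclic loess, the replicate block, array weights, a trended and robust prior, only the groups compared, and each array left out.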

Additional observations from a re-analysis of the deposited data

How the results depend on the processing

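Over 21 alternatives (20 for the change between times) the members called higher numbered 16 to 18 at 24 h and 15 to 19 at 48 h, those called lower 6 at 24 h and 6 to 7 at 48 h, and 0 were called between times. Pairs called numbered 10 to 11 over 14 alternatives. Of 150 results for single members, 140 kept their side of the threshold under every alternative run. The other 10 gave 11 lost and 18 gained calls. Of the gained ones 9 were of Gbe1, at 24 h with the replicate block and without in-sphere 24 h replicate 3, and at 48 h with centring, cyclic loess, the replicate block, array weights, only the groups compared, and without in-sphere 24 h replicate 1 or 3. The rest are given with their genes above, and 0 called differences of single genes changed sign. The ratio of Slc16a1 to Slc16a3 reversed with the mean over all probe sets (-0.51, adjusted p = 0.0414), where a dim probe set entered. With the replicate block the calls of Gbe1 at 24 h (0.46, adjusted p = 0.0476) and 48 h (0.50, adjusted p = 0.0281) and of Ldhb at 48 h (-0.63, adjusted p = 0.0201) were gained, and no other call of a member changed in the in-sphere comparisons. Over all genes the calls between 24 h and 48 h depended on the fit, with 0 in spheres against up to 115 with array weights, 42 outside against 0 to 286, and 0 for the change of the in-sphere difference against up to 130. The causes were not tested. Dim probe sets such as that of Eno2 limit what could be measured.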
